A study of Mus musculus with 10 samples.

Results

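Genes that cells switch on when they replicate DNA and divide were followed in the lungs of mice with and without the airway gene Bpifb1. The set held 35 genes picked by name, of which 14 act in or before S phase and 21 act in mitosis, out of 47333 genes in the deposited table. The names were matched to rows by Ensembl identifier through GENCODE release M21. All 35 were found, and all 35 were among the 18024 genes that passed the filter on low counts. The rule uses no measured value.

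RNA was sequenced from the right middle lung lobe of 10 mice, each a separate library. All were C57BL/6J mice aged 12 weeks that had received no treatment. The knockout (KO) group lacked Bpifb1 and held 1 male and 4 females, and the wild-type (WT) group held 2 males and 3 females. The labels do not say how the Bpifb1 allele was made, and they name no sequencing batch. The product of Bpifb1 is a protein that airway cells secrete. The comparison of the genotypes addresses what its absence does to lung RNA in mice that were not challenged. The p-values below rest on the spread among these mice only.

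Dividing cells pass through a fixed order of steps. Origins of replication are first licensed with the MCM helicase, which then unwinds DNA in S phase, and later a cyclin B and Cdk1 kinase drives entry into mitosis. The S phase genes are known targets of E2F factors, whereas many mitotic genes are held silent in resting cells by the DREAM complex through a promoter element called CHR. In an adult lung with no injury most epithelial and endothelial cells rest, and only a small minority is in cycle. In whole tissue, fewer cycling cells and less of a transcript per cycling cell cannot be told apart.

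Total counts per mouse ran from 21357452 to 28321361, and 3 counts, the level taken as the detection floor, equalled 0.103 to 0.143 CPM, the count of a gene when its library is scaled to 1000000 counts with TMM factors. That floor covers counting error only. Bpifb1 was at 0.217 to 1.26 CPM in the KO mice and 28.1 to 79.5 CPM in the WT mice, with no overlap. KO replicate 5 stood apart from its label: it is labelled female, yet Xist, an RNA made from the inactive X chromosome, was at 1.78 CPM there and at 273 to 407 CPM in the other 6 mice labelled female. In the mice labelled male Xist was at 1.29 to 1.73 CPM, and Ddx3y, a Y-linked gene, was at 43.1 to 63.4 CPM in them and at 0 in KO replicate 5. The labels were kept, and the main counts, list medians and the members given in every mouse are also reported without this library. Lung markers were abundant in every mouse, with the 8 alveolar type 2 cell markers summing to between 23708 and 29265 CPM.

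Promoter letters of S phase and mitotic genes are shown for 5 members, chosen after the motifs had been found because their windows hold several. Each line gives the 180 bases before the RefSeq transcription start on GRCm38.p6, 5′ to 3′ on the gene's own strand. Capitals mark 3 motifs on either strand: the CHR (TTTGAA or TTCGAA), the CCAAT box (CCAAT, or ATTGG when read from the other strand) and an E2F site (TTTCCCGC, TTTGGCGC, TTTCGCGC or TTTGCCGC).
Mcm6, chr1:128359706-128359885, minus strand: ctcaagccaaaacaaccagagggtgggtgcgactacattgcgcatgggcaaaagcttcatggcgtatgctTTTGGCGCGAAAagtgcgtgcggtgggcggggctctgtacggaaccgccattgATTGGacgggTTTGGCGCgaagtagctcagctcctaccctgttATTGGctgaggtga
Mcm5, chr8:75109329-75109508, plus strand: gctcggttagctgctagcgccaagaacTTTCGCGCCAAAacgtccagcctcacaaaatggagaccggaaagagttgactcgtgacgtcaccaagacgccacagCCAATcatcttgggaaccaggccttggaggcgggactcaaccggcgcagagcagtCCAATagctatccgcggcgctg
Cdk1, chr10:69352913-69353092, minus strand: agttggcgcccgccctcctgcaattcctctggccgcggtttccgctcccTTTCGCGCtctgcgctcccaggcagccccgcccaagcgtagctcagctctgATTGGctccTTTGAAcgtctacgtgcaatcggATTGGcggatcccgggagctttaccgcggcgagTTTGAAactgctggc
Ccnb2, chr9:70421555-70421734, minus strand: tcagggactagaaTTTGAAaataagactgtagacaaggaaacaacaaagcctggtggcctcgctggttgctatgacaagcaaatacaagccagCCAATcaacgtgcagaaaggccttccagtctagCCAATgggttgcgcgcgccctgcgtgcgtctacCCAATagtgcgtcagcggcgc
Cdc20, chr4:118437344-118437523, minus strand: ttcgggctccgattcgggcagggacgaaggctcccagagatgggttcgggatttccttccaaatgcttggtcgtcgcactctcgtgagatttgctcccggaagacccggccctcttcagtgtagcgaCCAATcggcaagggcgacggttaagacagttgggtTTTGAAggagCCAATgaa

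Mcm6 and Mcm5, subunits of the replicative helicase, hold E2F letters and no CHR in these windows. In both, a pair of E2F matches on opposite strands overlap in a single run of capitals. Cdk1, the mitotic kinase, holds 2 CHR matches, at 71 and 15 bases before the start, and also 1 E2F match. Ccnb2 (cyclin B2, a partner of Cdk1) and Cdc20 (an activator of the anaphase-promoting complex) hold CHR and CCAAT letters and no E2F match. Not every S phase gene is free of CHR letters. Mcm7, which is not printed, holds a CHR match at 173 and an E2F match at 165 bases before a start. Mcm2, also not printed, holds a CHR match and no E2F match.

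A tendency in the same direction as in the printed genes was seen over the members with a RefSeq promoter. Matches were counted in windows of 300 bases (250 before the start and 50 after it). A gene was counted once if any of its starts held the motif. A promoter was at hand for 30 of the 35 members. A CHR match was found in 14 of 18 mitotic genes (77.8%), in 2 of 12 S phase genes (16.7%) and in 21.7% of 27025 genes overall. An E2F match was found in 1 of 18 mitotic genes (5.56%), 7 of 12 S phase genes (58.3%) and 2.61% of all genes. CCAAT boxes were present in 16 of 18 mitotic genes (88.9%), 8 of 12 S phase genes (66.7%) and 41.1% of all genes. These are matches of letters and not measurements of binding. In Cdk1 and Cdc20 the last bases printed lie inside the gene as GENCODE draws it.

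All members were expressed at low to moderate levels in every mouse. The lowest count of any member in any mouse was 25, for Ccne1 (cyclin E1, which with Cdk2 starts S phase), and the highest was 1548, for Pcna (the sliding clamp of DNA polymerase). Per kilobase of exon, the mean level was highest for Pcna, at 23.2 CPM per kb, followed by Gins2 at 9.77, Mcm4 at 8.42 and Mcm6 at 7.21 CPM per kb. The lowest levels per kilobase were those of Cenpf at 0.256, Cenpe at 0.393 and Cdc6 at 0.404 CPM per kb. Cenpf and Cenpe are large kinetochore proteins, and Cdc6 loads the helicase. Among the mitotic genes Cdc20 led with 3.67 CPM per kb, and Ki-67 (Mki67), the usual marker of cycling cells, stood at 2.11 CPM per kb. The 4 highest were thus all S phase genes. Counts from processed pseudogenes lay beside 3 members: Pcna-ps2 held a mean of 146 counts against 1342 for Pcna, Ccnb2-ps held 53.1 against 92 for Ccnb2, and Ccnb1-ps held 3.54 against 51.1 for Ccnb1, so these members' counts may be split between copies.

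No proliferation gene passed the test between KO and WT lungs after adjustment over all genes. In edgeR's quasi-likelihood test 0 of 35 members were called at an adjusted p under 0.05, where 0.0222% of all tested genes were (4 genes), and DESeq2 and limma-voom also called 0. Without KO replicate 5 edgeR called 0 too. At an unadjusted p under 0.05 there were 4 members lower in KO (8.04% of all tested genes were) and 1 higher in KO (8.92% of all tested genes were). Those 5 members are 14.3% of the set, against 17.0% of all tested genes in both directions together. DESeq2 gave 2 members and limma-voom 4 at an unadjusted p under 0.05, and the number from edgeR was 2 without KO replicate 1 or without WT replicate 2 and 3 without KO replicate 2 or without WT replicate 1. The 95% intervals of the 35 log2 fold changes lay between -0.76 and 0.51.

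Direction was uneven but small in size. Of the 35 fitted log2 fold changes (KO minus WT) 26 were negative and 9 positive, while 50.7% of all tested genes were negative. The median over the members was -0.057, against -0.0027 over all tested genes. The median absolute value was 0.088 for the members and 0.10 for all tested genes, so members did not lie farther from 0. Without KO replicate 5 the count of negative values was 29, and without WT replicate 1 it was 20.

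**Figure D1:**
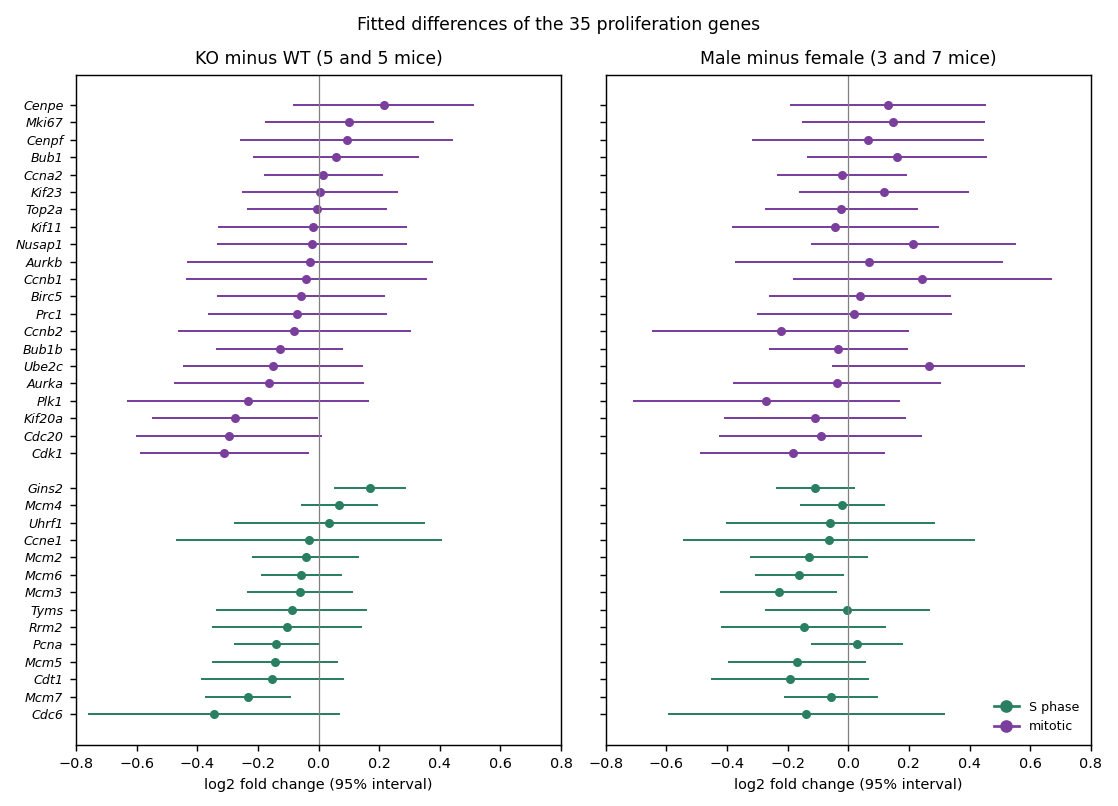
Points are fitted log2 fold changes from edgeR for the 14 S phase and 21 mitotic genes and lines their 95% intervals, for KO minus WT on the left and male minus female on the right. Few lines miss 0: 5 members on the left (Mcm7, Pcna, Cdk1, Kif20a and Gins2) and 2 on the right (Mcm3 and Mcm6).

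Among the S phase genes 11 of 14 log2 fold changes were negative and the median was -0.074. The median was -0.097 without KO replicate 5, -0.0056 without WT replicate 1, -0.038 without KO replicate 1 and -0.13 without WT replicate 5. The lowest adjusted p (edgeR) was 0.15.

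Mcm7, a helicase subunit encoded at chr5:138164583-138172422 (GRCm38), was the member with the smallest p. It was at 24.6, 27.6, 28.4, 28.9 and 25.8 CPM in KO replicates 1 to 5 and at 33.2, 34.1, 29.4, 31.1 and 29.8 CPM in WT replicates 1 to 5. Every KO mouse lay below every WT mouse, by a narrow gap, and no other member had genotype ranges that stood apart in this direction (0.915% of all tested genes did). The means were 27.1 ± 1.80 CPM (SD, n = 5) in KO and 31.5 ± 2.07 CPM (SD, n = 5) in WT. The log2 fold change was -0.23 (SE 0.064, 95% interval -0.37 to -0.095, unadjusted p = 0.0029). After adjustment p was 0.15 in edgeR, which does not pass. Leaving out 1 mouse at a time kept the value between -0.18 and -0.27, and it was -0.22 without KO replicate 5. Mcm7 shares 7.25% of its exon bases with Ap4m1 on the other strand, and the log2 fold change of Ap4m1 was -0.029. It shares a further 1.45% with Cops6, also on the other strand, and the log2 fold change of Cops6 was -0.13 (unadjusted p = 0.041, adjusted p = 0.27 in edgeR). Whether reads of either gene add to Mcm7 was not tested.

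The other MCM subunits, which form 1 ring with Mcm7, lay closer to 0. Mcm2 was at 17.0, 19.3, 19.4, 17.8 and 19.8 CPM in KO and at 22.7, 19.4, 16.8, 17.6 and 18.0 CPM in WT. WT replicate 1 was the highest and the groups overlapped over most of their range. The fitted difference in Mcm2 was -0.043 on the log2 scale (SE 0.080, adjusted p = 0.83 in edgeR), and -0.057 without KO replicate 5. Mcm4 stood on the positive side, with 31.1, 30.6, 31.9, 31.8 and 29.3 CPM in KO and 32.4, 30.2, 27.7, 29.2 and 27.8 CPM in WT. Its groups overlapped, and its log2 fold change was 0.068 (SE 0.058, adjusted p = 0.58 in edgeR), or 0.086 without KO replicate 5. For Mcm3, Mcm5 and Mcm6 the log2 fold changes were -0.060, -0.14 and -0.057. The 6 subunits of the same ring therefore did not share a sign.

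Helicase loading factors and the firing factor gave values on both sides of 0. Cdc6 was at 1.30, 2.07, 1.86, 2.34 and 1.85 CPM in KO and at 2.58, 3.05, 1.93, 2.17 and 2.00 CPM in WT. KO replicate 1, the KO male, was the lowest and WT replicate 2, a male, the highest, while the other 8 mice overlapped. Cdc6 had a log2 fold change of -0.34 (SE 0.19, with 0.38 as its adjusted p in edgeR), or -0.14 without KO replicate 1 and -0.33 without KO replicate 5. Counts of Cdc6 were low, at 33 to 64 per mouse. For Cdt1, the partner of Cdc6 in loading, the log2 fold change was -0.15 (SE 0.11).

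Gins2, a subunit of the GINS complex that activates the helicase, was the member on the other side with a small p. It was at 40.2, 43.9, 44.2, 39.5 and 45.5 CPM in KO and at 40.3, 35.7, 35.6, 39.2 and 36.1 CPM in WT. KO replicates 2, 3 and 5 lay above every WT mouse, and the other KO mice fell among the 2 highest WT mice. No member had KO values wholly above the WT values (0.96% of all tested genes did). Its log2 fold change was 0.17 (SE 0.054, unadjusted p = 0.0072), with an adjusted p of 0.18 in edgeR, and 0.15 without KO replicate 5. At chr8:120578633-120589304 (GRCm38) Gins2 shares 67.3% of its exon bases with Gse1 on the opposite strand. Gse1 itself had a log2 fold change of 0.20 (unadjusted p = 0.0054). The library kit marks strand, but the strand setting used for counting is not given in the sources used here, and whether reads of Gse1 add to Gins2 was not tested.

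At the fork, Pcna was at 51.3, 52.6, 54.9, 57.8 and 47.4 CPM in KO and at 60.1, 63.4, 57.3, 57.9 and 53.4 CPM in WT. KO replicates 1, 2 and 5 lay below every WT mouse, with KO replicate 5 the lowest. WT replicates 1 and 2 were the highest, and the rest were intermixed. For Pcna the log2 fold change was -0.14 (SE 0.064, unadjusted p = 0.047), with an adjusted p of 0.29 in edgeR, and -0.11 without KO replicate 5. Rrm2 and Tyms, enzymes of nucleotide supply, had log2 fold changes of -0.11 and -0.088. Ccne1 was at -0.031 and Uhrf1, which keeps DNA methylation through replication, at 0.036 on the same scale.

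**Figure D2:**
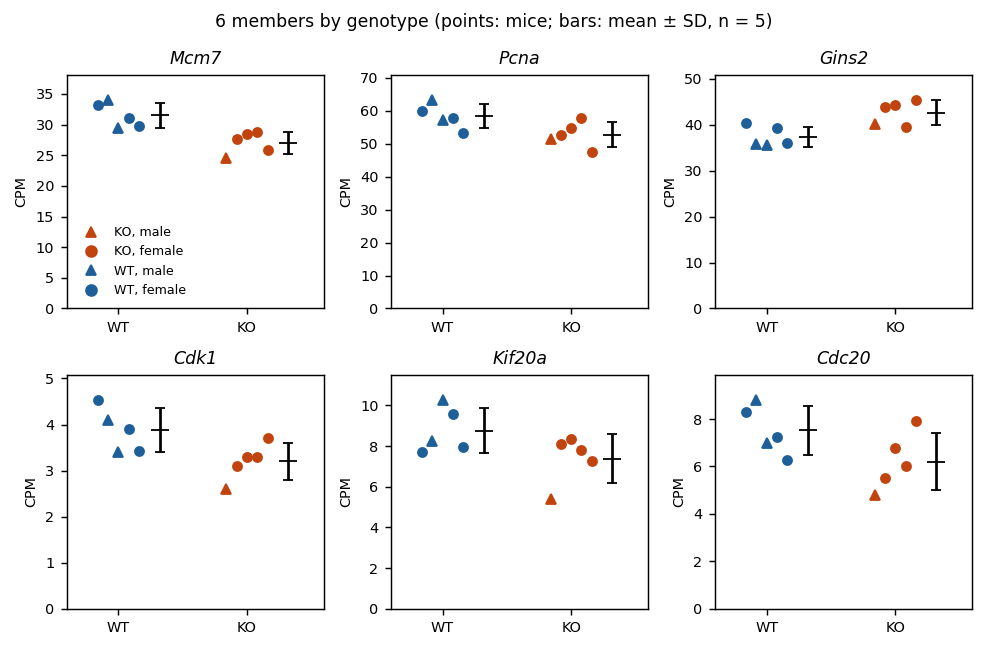
Each point is the level of a gene in 1 mouse in CPM on an axis from 0, circles for females and triangles for males as labelled, and bars are the mean ± SD of 5 mice. The KO and WT points are apart only for Mcm7, and overlap for Pcna, Gins2, Cdk1, Kif20a and Cdc20.

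The mitotic genes showed 15 of 21 negative log2 fold changes with a median of -0.041. Their lowest adjusted p (edgeR) was 0.24. The size of that median depended on single mice: it was -0.13 without KO replicate 5 and -0.13 without WT replicate 5. It was -0.0081 without KO replicate 1, -0.017 without KO replicate 4, -0.018 without WT replicate 1 and -0.022 without WT replicate 2.

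Cdk1 and Cdc20 had the most negative values among them. Cdk1 (chr10:69335146-69352938, GRCm38) was at 2.596, 3.10, 3.30, 3.30 and 3.71 CPM in KO and at 4.53, 4.09, 3.41, 3.91 and 3.42 CPM in WT. KO replicates 1 to 4 lay below every WT mouse, and KO replicate 5 lay within the WT range. Cdk1 had a log2 fold change of -0.31 (SE 0.13, unadjusted p = 0.029), with an adjusted p of 0.24 in edgeR, and -0.36 without KO replicate 5. Cdc20 was at 4.80, 5.50, 6.78, 6.03 and 7.93 CPM in KO and at 8.30, 8.81, 6.98, 7.25 and 6.28 CPM in WT. Here too KO replicate 5 was the highest KO mouse and the groups overlapped. For Cdc20 the fitted log2 difference was -0.30 (SE 0.14, adjusted p = 0.30 in edgeR), with -0.15 without KO replicate 1 and -0.39 without KO replicate 5. Cdc20 shares 2.84% of its exon bases with Elovl1 on the other strand, which held a mean of 8071 counts per mouse against 165 for Cdc20. The log2 fold change of Elovl1 was -0.20 (unadjusted p = 0.011, adjusted p = 0.20 in edgeR), and whether its reads add to Cdc20 was not tested.

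Kif20a, a kinesin of the central spindle needed for cytokinesis, was at 5.39, 8.12, 8.36, 7.80 and 7.26 CPM in KO and at 7.71, 8.24, 10.3, 9.59 and 7.97 CPM in WT. KO replicate 1 alone lay far below, and the other KO mice lay around the 3 lower WT mice. Its log2 difference was -0.28 (SE 0.13, unadjusted p = 0.047), with an adjusted p of 0.29 in edgeR, and it was -0.095 without KO replicate 1 and -0.27 without KO replicate 5. Kif20a shares 29.3% of its exon bases with Cdc23 on the other strand, and Cdc23 had a log2 fold change of -0.061.

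The markers most used to score cycling cells had overlapping genotypes. Mki67 was at 22.5, 20.9, 19.7, 17.9 and 27.5 CPM in KO and at 21.7, 23.3, 21.8, 21.6 and 15.6 CPM in WT. The highest and the lowest mouse, KO replicate 5 and WT replicate 5, were both far from their groups. Mki67 had a log2 fold change of 0.10 (SE 0.13, adjusted p = 0.72 in edgeR), and it came to -0.0027 without WT replicate 5 and -2.8e-05 without KO replicate 5. Top2a, the topoisomerase that untangles sister chromosomes, was at 11.8, 12.8, 12.6, 12.6 and 16.2 CPM in KO and at 13.0, 13.6, 13.9, 14.97 and 10.9 CPM in WT. Its 4 lowest mice besides WT replicate 5 were all KO, but KO replicate 5 was the highest mouse of all. The log2 fold change of Top2a was -0.0052 (SE 0.11, 95% interval -0.23 to 0.22, adjusted p = 0.99 in edgeR), and -0.082 without KO replicate 5.

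Cyclin B1 (Ccnb1), which binds Cdk1, was at 2.08, 2.07, 1.44, 1.82 and 2.72 CPM in KO and at 2.13, 2.57, 2.49, 2.08 and 1.66 CPM in WT. The groups overlapped over nearly their whole range. In edgeR its log2 difference came to -0.041 (SE 0.18, adjusted p = 0.94), and to -0.17 without KO replicate 5. Ccnb1 counts were 31 to 69 per mouse, and the spread between mice, a coefficient of variation of 19.2%, was not far from the 14.0% that counting alone gives at its mean count. For Ccnb2 and Ccna2 (cyclin A2) the log2 fold changes were -0.080 and 0.016. Ccna2 shares 12.5% of its exon bases with Exosc9 on the other strand, which held a mean of 372 counts against 170 for Ccna2. Whether reads of Exosc9 add to Ccna2 was not tested.

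On the positive side, Cenpe (a kinetochore motor) was at 3.42, 3.77, 2.88, 3.69 and 4.26 CPM in KO and at 3.04, 3.38, 3.73, 2.69 and 3.04 CPM in WT. The groups overlapped, with KO replicate 5 the highest. In edgeR the log2 difference was 0.22 (SE 0.14, adjusted p = 0.44) and 0.15 without KO replicate 5.

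The other mitotic members fell between these values. The checkpoint kinases Bub1 and Bub1b had log2 fold changes of 0.058 and -0.13. The mitotic kinases Aurka, Aurkb and Plk1 were at -0.16, -0.029 and -0.23 on that scale. Birc5 (survivin, a partner of Aurkb) was at -0.057, and its coefficient of variation between mice was 8.21%, below the 12.4% expected from counting. Motors and spindle proteins gave -0.019 for Kif11, 0.0036 for Kif23, -0.022 for Nusap1 and -0.070 for Prc1. Prc1 shares 11.1% of its exon bases with Rccd1 on the other strand, which held a mean of 228 counts against 138 for Prc1. Whether reads of Rccd1 add to Prc1 was not tested. Ube2c, which tags mitotic cyclins for destruction, was at -0.15, and Cenpf at 0.093. Without KO replicate 5 the values of Plk1, Aurka and Prc1 came to -0.37, -0.28 and -0.21, and that of Cenpf to -0.062.

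**Figure D3:**
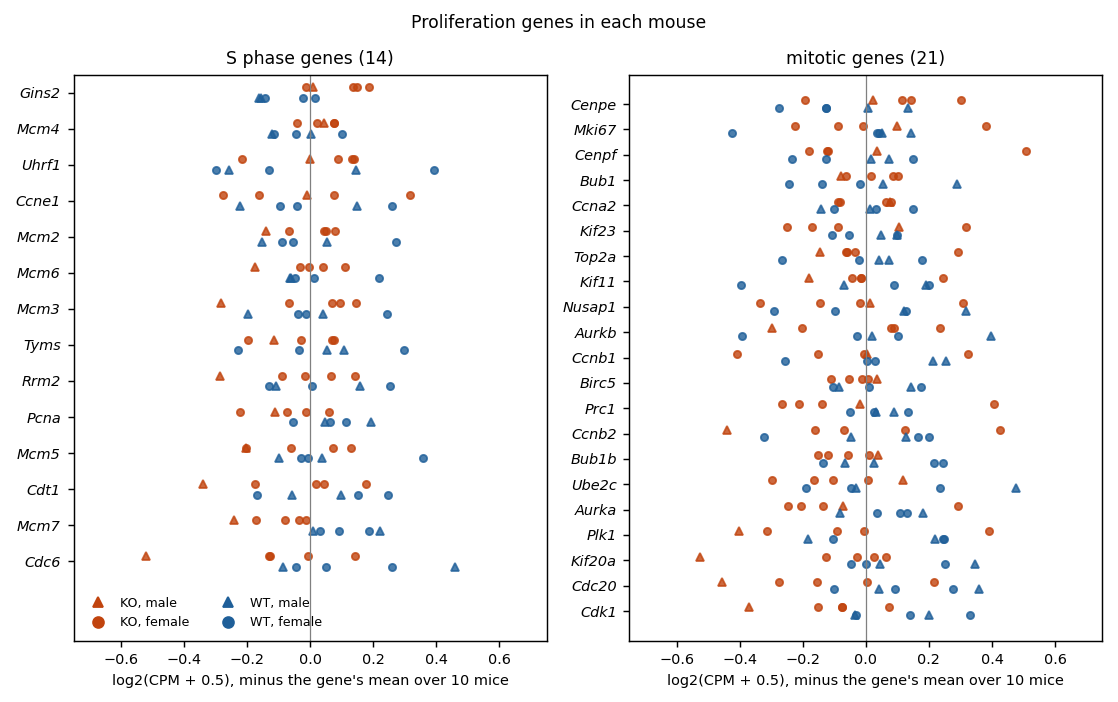
Each point is the log2(CPM + 0.5) of a member in 1 mouse minus that gene's mean over 10 mice, with KO drawn above WT in each row and members sorted by their log2 fold change. The isolated points at the right of many mitotic rows belong to KO replicate 5. The KO male is the leftmost point for 11 of the 35 members, among them Mcm7, Cdk1, Cdc6, Cdt1, Kif20a, Ccnb2 and Cdc20.

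The spread between mice of a genotype exceeded the median difference between genotypes. Averaged over the 21 mitotic genes, each centred on its own mean, log2 CPM was -0.12, -0.062, -0.11 and -0.10 in KO replicates 1 to 4 and 0.22 in KO replicate 5. In WT replicates 1 to 4 it was 0.077, 0.16, 0.035 and 0.074, and in WT replicate 5 it was -0.17. Thus 4 KO mice lay below 4 WT mice, while the remaining mouse of each genotype held the opposite end. Summed over the 21 genes, levels were 112 to 116 CPM in KO replicates 1 to 4 against 145 CPM in KO replicate 5, and 126 to 135 CPM in WT replicates 1 to 4 against 105 CPM in WT replicate 5. KO replicate 5 was the highest mouse for 11 of the 21 genes, and WT replicate 5 was the lowest for 6. KO replicate 5 is also the library whose Xist level goes against its label. The part of that in the mitotic levels was not tested.

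The S phase genes ordered the mice differently. Their centred means were -0.17, 0.035, 0.031, -0.052 and 0.023 in KO replicates 1 to 5 and 0.23, 0.077, -0.075, -0.041 and -0.060 in WT replicates 1 to 5. WT replicate 1 was the highest mouse for 9 of the 14 genes and KO replicate 1 the lowest for 6. KO replicate 5, the extreme of the mitotic genes, lay near the middle. The pooled SD between mice of a genotype was 0.11 for the S phase mean and 0.13 for the mitotic mean.

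**Figure D4:**
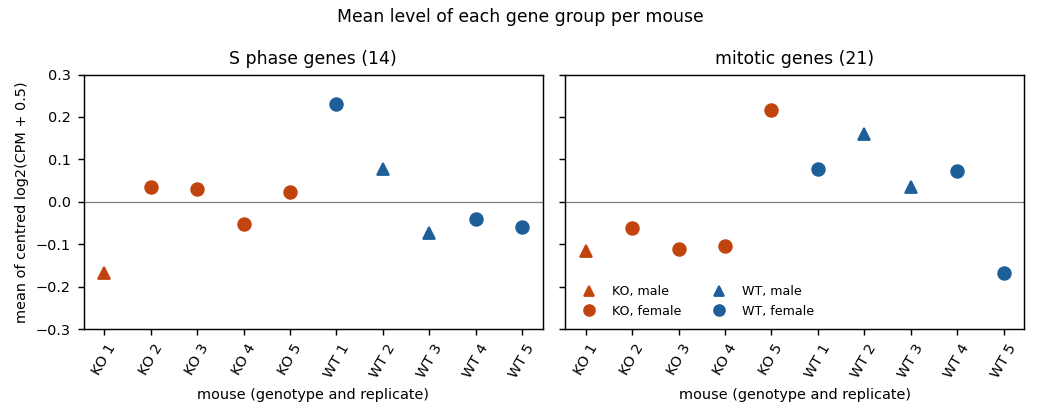
The mean of centred log2(CPM + 0.5) over the 14 S phase genes (left) and the 21 mitotic genes (right) is plotted for each mouse, with colour for genotype and shape for labelled sex. On the left WT 1 (0.23) and KO 1 (-0.17) are the extremes, and on the right KO 5 (0.22) and WT 5 (-0.17).

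Within each class most members followed the others from mouse to mouse. The Pearson r of each mitotic gene with the mean of the other 20 mitotic genes, over 10 mice, had a median of 0.63 and ran from 0.15 for Kif20a to 0.85 for Top2a. It was over 0.5 for 17 of the 21 genes. Of the tested genes outside the list, 6.06% had an r over 0.5 with the mitotic mean. The lowest besides Kif20a were Ccna2 at 0.18 and Cenpe at 0.22. For the S phase genes the median was 0.64, from 0.12 for Gins2 to 0.94 for Mcm2, with 10 of 14 over 0.5. With the S phase mean, 15.3% of the tested genes outside the list were over 0.5. Pcna and Ccne1 followed the others weakly, at 0.33 and 0.21. These correlations describe 10 libraries that share a scaling, and they carry no test.

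The genes outside the list whose pattern over the 10 mice was most like the mitotic mean were Gm2399 (r = 0.94), Kif22 (0.94), Troap (0.93), Lpar2 (0.93), Iqgap3 (0.92), Pimreg (0.91), Tecpr2 (0.91), Krtap17-1 (0.90), Ap5z1 (0.90) and A530083I20Rik (0.88). Kif22 is a chromosome-binding kinesin and Troap a spindle-associated protein. Only Kif22 of the 10 is in the other cell cycle lists described below. Gm2399 is an unprocessed pseudogene at a mean of 0.45 CPM. Of these 10 genes only 2 stayed among the 10 most like without KO replicate 5, and 6 without WT replicate 5. For the S phase mean the most alike were Metrnl (0.95), 1110020A21Rik, Pafah1b3, Psmb8, C1qtnf12, Rps6kb2, Selenoh, Gm10175, Frs3 and Nprl3 (0.91), of which 2 to 8 stayed when 1 mouse was left out (2 without WT replicate 1). None of the genes named for the S phase mean is in the other cell cycle lists. Over 132 other cell cycle genes the median r was 0.21 with the mitotic mean and 0.31 with the S phase mean, against 0.00067 and 0.028 over all genes outside the list.

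Between the sexes no proliferation gene passed either. edgeR's quasi-likelihood test called 0 of 35 members at an adjusted p under 0.05, where 0.583% of all tested genes were called, and DESeq2 and limma-voom called 0. The lowest adjusted p (edgeR) was 0.24. At an unadjusted p under 0.05 there were 2 members lower in males (7.79% of all tested genes were) and 0 higher in males (7.34% of all tested genes were). DESeq2 and limma-voom gave 2 each. Without WT replicate 1 the number was 0, without WT replicate 4 it was 4, without KO replicate 1 it was 1, and without KO replicate 5 it was 2.

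Both were helicase subunits. Mcm6 was at 29.7, 32.1 and 32.1 CPM in the males KO 1, WT 2 and WT 3, at 34.6, 33.5, 32.8 and 36.3 CPM in the females KO 2 to KO 5, and at 39.2, 33.9 and 32.5 CPM in the females WT 1, WT 4 and WT 5. All 3 males lay below all 7 mice labelled female, by a narrow gap. Ranges of the sexes stood apart for 1 of 35 members, against 4.81% of all tested genes. Mcm6 had a log2 fold change (male minus female) of -0.16 (SE 0.066, unadjusted p = 0.029), with an adjusted p of 0.27 in edgeR, and it was -0.15 without KO replicate 5. Mcm3 was at 18.1, 22.8 and 19.2 CPM in the males and at 23.7, 23.3, 21.1, 24.5, 26.3, 21.9 and 21.5 CPM in the females in the same order. WT replicate 2 was the male that fell among the females. On the same scale Mcm3 was at -0.23 (SE 0.088, unadjusted p = 0.021), with an adjusted p of 0.24 in edgeR. It came to -0.22 without KO replicate 5 and -0.15 without KO replicate 1.

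The S phase genes had negative log2 fold changes (male minus female) in 13 of 14 cases, with a median of -0.12, where 51.7% of all tested genes were negative. That median was -0.11 without KO replicate 5, -0.077 without WT replicate 1 and -0.069 without KO replicate 1. Pcna was the exception at 0.028 (SE 0.069), or 0.011 without KO replicate 5. Tyms was at 6.02, 7.09 and 6.82 CPM in the males and at 5.65, 6.41, 6.94, 6.91, 8.16, 6.38 and 5.52 CPM in the females. The males fell inside the female range, and the log2 fold change was -0.0029 (SE 0.12), or 0.012 without KO replicate 5. Cdt1 was at 6.69, 9.23 and 8.23 CPM in the males and at 8.71, 8.87, 7.54, 9.79, 10.3, 7.59 and 9.59 CPM in the females. The KO male was the lowest mouse and the other males lay among the females, with a log2 fold change of -0.19 (SE 0.12). That of Cdt1 was -0.072 without KO replicate 1 and -0.17 without KO replicate 5.

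For the mitotic genes 10 of 21 log2 fold changes (male minus female) were negative and the median was 0.019, a value that was negative without KO replicate 3, KO replicate 4, WT replicate 2 or WT replicate 5. It was 0.046 without KO replicate 5. The mitotic genes farthest from 0 were Plk1 at -0.27 (SE 0.20), Ccnb2 at -0.22 (SE 0.20), Ube2c at 0.27 (SE 0.15) and Ccnb1 at 0.24 (SE 0.20). Plk1 was at 1.93, 3.24 and 2.33 CPM in the males and at 2.51, 2.69, 2.08, 3.71, 3.31, 3.30 and 2.48 CPM in the females. For Ccnb2 the males were at 2.64, 4.14 and 3.61 CPM and the females at 4.13, 3.30, 3.56, 5.21, 4.26, 4.38 and 2.90 CPM. In both genes the KO male was the lowest mouse and the other males lay inside the female range. Plk1 moved to -0.12 without KO replicate 1, -0.44 without WT replicate 2 and -0.20 without KO replicate 5. Ccnb2 moved to 0.017, -0.34 and -0.16 in the same settings, and to -0.35 without WT replicate 5. Ube2c was at 4.68, 6.14 and 4.17 CPM in the males and at 3.77, 3.39, 3.95, 4.30, 4.13, 5.12 and 3.69 CPM in the females. Ccnb1 males stood at 2.08, 2.57 and 2.49 CPM and females at 2.07, 1.44, 1.82, 2.72, 2.13, 2.08 and 1.66 CPM. For Ube2c WT replicate 2 was the highest mouse and the other males lay inside the female range, and for Ccnb1 all males did. Ube2c came to 0.13 without WT replicate 2, 0.40 without WT replicate 3 and 0.29 without KO replicate 5. Ccnb1 came to 0.38 without KO replicate 1, 0.32 without KO replicate 5 and 0.17 without WT replicate 5. Whether the S phase and mitotic genes differ in their response to sex was not tested.

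Marker lists of other cells also had uneven signs. The 9 T cell markers summed to 70.8 to 78.6 CPM in males, whereas the mice labelled female spanned 77.4 to 109 CPM, and 9 of 9 had negative log2 fold changes (male minus female) with a median of -0.30 (-0.30 without KO replicate 5 too), where 51.7% of all tested genes were negative. None was at 0 in all mice. In the genotype comparison 5 of 8 alveolar type 2 cell markers had an unadjusted p under 0.05, all lower in KO (8.04% of all tested genes were), with a median of -0.16 and summed levels of 23708 to 26974 CPM in KO and 24637 to 29265 CPM in WT. Of the 8 log2 fold changes 6 were negative and 2 positive. Those of the markers that did not reach this p were 0.056 for Abca3, 0.0075 for Lamp3 and -0.038 for Slc34a2. None of the 8 was called or at 0. Without KO replicate 5 the number was 4 of 8 and the median again -0.16. Between the sexes 4 of 7 megakaryocyte markers had an unadjusted p under 0.05, all higher in males (7.34% of all tested genes were), with a median of 0.54, or 0.59 without KO replicate 5. Of the 7, 6 had positive log2 fold changes, and Vwf, the most abundant, was at -0.14. The median over the 4 tested of 8 red cell precursor markers was 0.45 between the sexes, or 0.46 without KO replicate 5. Over all tested genes that median was -0.0064. Of the 4 markers 3 were positive, and Tfrc, the most abundant at a mean of 50.3 CPM, was at -0.25. Between the sexes edgeR called 1 club cell marker, Aldh1a1 (0.34, adjusted p = 0.024), where 0.583% of all tested genes were called. It also called 1 plasma cell marker, Mzb1 (-0.58, adjusted p = 0.042), and 1 germinal centre B cell marker, Bcl6 (0.52, adjusted p = 0.049). Without KO replicate 5 the club cell list held 1 call and the other 2 lists 0. The part of any of these lists in the proliferation genes was not tested.

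Markers of tissues rich in dividing cells did not share an order of the mice. Of the 6 thymocyte markers Rag2 was at 0 in all mice, Ptcra did not exceed 0.143 CPM, and the 6 summed to 1.93 to 3.99 CPM, highest in KO replicate 5. Most of that sum came from Themis, at 3.12 CPM in that mouse. The 8 markers of neutrophil precursors summed to 13.2 to 24.4 CPM, also highest in KO replicate 5, where Ltf alone gave 21.9 CPM and Mpo 0.276 CPM. The 8 red cell precursor markers summed to 51.6 to 74.7 CPM and were highest in WT replicate 5, and the 7 germinal centre B cell markers summed to 140 to 187 CPM and were lowest in KO replicate 5.

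The rest of the cell cycle machinery gave the same picture of small values. Of 133 further genes in 6 lists 132 were tested and 0 were called by edgeR between KO and WT (0.0222% of all tested genes were), while 17 had an unadjusted p under 0.05, 6 higher and 11 lower in KO. Those 17 are 12.9% of the 132, against 17.0% of all tested genes. Here 84 of 132 log2 fold changes were negative and the median was -0.053. Without KO replicate 5 these counts were 18 and 88, and the median -0.081. DESeq2 called 2 of the 132 (1.52%), Rpa2 and Ccnd2, and 0 members, where it called 1.92% of all tested genes.

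Rpa2, a subunit of the protein that coats single-stranded DNA, was at 10.7, 12.3, 12.4, 11.3 and 11.1 CPM in KO and at 15.5, 14.1, 12.7, 15.3 and 13.4 CPM in WT. The KO mice all lay below the WT mice, as for 3 of the 132 genes and 0.915% of all tested genes. Its log2 fold change was -0.32 (SE 0.072, adjusted p = 0.12 in edgeR and 0.031 in DESeq2), and -0.30 without KO replicate 5. Ccnd2 (cyclin D2, which carries growth signals into G1) was at 195, 198, 186, 200 and 218 CPM in KO and at 152, 157, 179, 178 and 154 CPM in WT. All KO mice lay above all WT mice, as for 1 of the 132 genes and 0.96% of all tested genes. Its log2 fold change was 0.28 (SE 0.065, adjusted p = 0.12 in edgeR and 0.0079 in DESeq2), and 0.25 without KO replicate 5.

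By list, the median log2 fold change (KO minus WT) was -0.11 over 26 genes of the replication fork and nucleotide supply and -0.057 over 17 genes of origin licensing and firing. It was -0.093 over 24 kinetochore and checkpoint genes and -0.070 over 26 genes of the spindle, condensation and cytokinesis. For 20 E2F, FoxM1 and DREAM regulators it was 0.0012, and for 19 tested G1 cyclins, kinases and inhibitors 0.015. Without KO replicate 5 the medians of these 6 lists ran from -0.11 to 0.017. The 2 genes with the smallest unadjusted p besides those above were Prim1 (primase, -0.33) at the fork, Gins4 (-0.18) and Gmnn (geminin, an inhibitor of licensing, -0.27) in licensing, and Cdca8 (-0.26) and Spc24 (-0.30) at the kinetochore. They were Ncapg (condensin, 0.46) and Pttg1 (securin, -0.15) in the spindle list, Lin37 (a DREAM subunit, -0.21) and E2f3 (0.26) among the regulators, and Cdkn2d (p19, an inhibitor of Cdk4 and Cdk6, -0.32) in G1. None of these passed in edgeR, and their adjusted p ranged from 0.13 to 0.37.

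**Figure D5:**
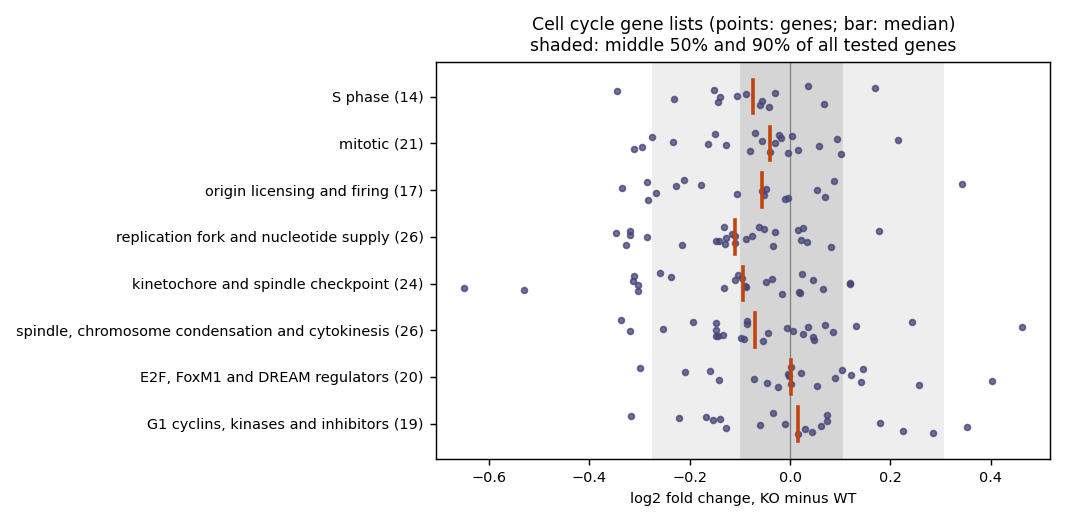
Points are fitted log2 fold changes (KO minus WT) of single genes in the 2 member classes and 6 further cell cycle lists, orange bars are list medians, and the shading holds the middle 50% (dark) and 90% (light) of all 18024 tested genes. Most points lie inside the light band, from -0.27 to 0.31, and the list medians run from -0.11 to 0.015.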

How the data were processed

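The deposited table holds the authors' estimated counts of 47333 genes in 10 mice, with no scaling between libraries. The kit was a stranded mRNA kit and reads were single reads of 50 bases, per the labels' protocols. The submitters' processing notes name FastQC, MultiQC, STAR 2.6.0 and Salmon 0.9.1 with mm10 and GRCm38; the annotation, filters and strand setting are not given in the sources used here. Of the non-zero values 30.1% were not whole (more than 0.01 from an integer).

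Symbols came from GENCODE M21 by identifier (47281 matched). Counts were rounded and scaled by TMM, and genes were kept by filterByExpr (minimum count 10, minimum total 15). edgeR 4.0.16 (R 4.3.3) fitted its robust quasi-likelihood test to all 10 mice with genotype and sex, with Benjamini-Hochberg adjustment over 18024 genes and calls at an adjusted p under 0.05. DESeq2 1.42.0, limma-voom (limma 3.58.1), other scalings, filters and covariates, females alone and leaving out each mouse were alternatives. Their counts over members and lists, and the marker lists without KO replicate 5, were added after seeing the data. The procedure was tested on simulated data. Promoter sequences are from RefSeq (GRCm38.p6). Log2 levels per mouse use log2(CPM + 0.5).

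Members, lists and tests were chosen with earlier results of these data known. Values in every mouse are given for Mki67, Top2a, Ccnb1, Cdk1, Mcm2 and Pcna, for members with an unadjusted p under 0.05 or ranges that do not overlap, and for the 2 largest differences in each class and direction, with the same rule for sex but without the fixed names. Of each other cell cycle list the 2 genes with the smallest p are named. Replicate numbers were given in accession order and pair no animals.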

Additional observations from a re-analysis of the deposited data

Results flagged for a closer look

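Within a genotype of 5 mice, 9 of 108 groups of values held a mouse far from the other 4. A rate of 1 in 20 would flag about 5.4. The groups are not independent, because members vary together and the sums hold the same genes, so the 2 numbers cannot be weighed against each other. KO replicate 5 accounted for 4 of them, all mitotic. Top2a was at 16.2 CPM there and 11.8 to 12.8 CPM in the other KO mice, Aurka at 3.95 CPM against 2.56 to 2.95, and Cenpf at 5.76 CPM against 3.39 to 4.01. The summed level of the 21 mitotic genes was 145 CPM there, against 112 to 116 CPM in the other KO mice. Mki67 stood out in WT replicate 5, at 15.6 CPM against 21.6 to 23.3 CPM. WT replicate 1 stood out for 2 helicase subunits, Mcm5 at 17.6 CPM against 12.7 to 14.0 and Mcm6 at 39.2 CPM against 32.1 to 33.9. Among marker lists, the club cell sum was 28240 CPM in KO replicate 4 against 25200 to 26020 CPM, and the B cell sum was 244 CPM in WT replicate 5 against 172 to 190 CPM.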

How the results depend on the processing

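No member was called between the genotypes or the sexes under any alternative run. For the members given in every mouse, 381 of 409 alternative log2 values kept their sign. Most of these members were picked for a small p or a large difference, and signs of the other members were not followed gene by gene. The members at an unadjusted p under 0.05 (KO against WT) numbered 3 with DESeq2 size factors, without sex in the fit or without robust dispersion, 2 with the DESeq2 Wald test or in females alone, and 2 to 6 when 1 mouse was left out; between the sexes leaving out 1 mouse gave 0 to 4. Of the other cell cycle genes DESeq2 called 2. Over all genes the calls between genotypes were 57 at an adjusted p under 0.1, 50 without a filter on low counts, 346 with DESeq2, 2 with limma-voom and 2 to 18 without 1 mouse (18 without WT replicate 3, and 2 without KO replicate 2, 4 or 5 or WT replicate 1); between the sexes they were 351, 197 and 436 in the first 3 of these settings, 41 without genotype in the fit and 0 to 195 without 1 mouse (0 without KO replicate 1, 43 without WT replicate 2, 46 without KO replicate 2, 195 without WT replicate 4). Of the 10 most alike genes 2 to 9 (mitotic) and 2 to 8 (S phase) stayed without 1 mouse. Some values changed sign. For sex, Tyms was 0.0016 with DESeq2 size factors, 0.019 without genotype, 0.0019 with DESeq2 and 0.018 with limma-voom, and Pcna was -0.0012 with library totals alone. For genotype, Top2a was 0.0031 with library totals, 0.0045 with limma-voom and 0.074 in females, and Ccnb1 was 0.054 in females. Leaving out 1 mouse gave -0.098 to 0.074 for Top2a, -0.17 to 0.055 for Ccnb1, -0.090 to 0.037 for Mcm2 and -0.0027 to 0.15 for Mki67 (genotype), and -0.081 to 0.083 for Tyms, -0.35 to 0.017 for Ccnb2 and -0.022 to 0.079 for Pcna (sex). The cause was not tested. At 25 to 69 counts per mouse Ccne1, Cdc6 and Ccnb1 carry a counting error of 14.0% to 16.6%. No paired analysis was possible because the replicate numbers only name the mice.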
